A study of Mus musculus with 3 samples.

Results

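The cell cycle genes that copy and divide the genome were followed in integrin alpha6-positive, Sca1-negative (Alpha6+/Sca1-) cells of resting mouse back skin. The genes were chosen by symbol, as 20 genes of DNA replication and the entry into S phase and 18 genes of mitosis, and 36 of these 38 were found in the deposited table, among 44546 gene symbols in all. They comprise 18 replication genes and 18 mitosis genes, and Cdt1 and Gins2 were not analysed here. The 3 libraries form 1 group from wild-type (WT) mice aged 56 days (P56, the second telogen), and no strain was given in the labels. Telogen is the resting phase of the hair cycle. The cells were freed with trypsin, sorted by flow cytometry, with an antibody to integrin alpha6 as the one named in the labels' protocol, and their polyadenylated RNA was sequenced. Integrin alpha6 marks basal epithelial cells of epidermis and follicle, and Sca1 is a surface protein of epidermis and upper follicle. The labels' protocol for cell collection speaks of duplicates while the libraries number 3, so which of them come from separate mice was not stated, and each SD may in part be technical. With 1 group, no contrast between groups was fitted, and the only tested comparison is the one in the authors' deposited table.

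A cell that divides first licenses its replication origins with the MCM2-7 helicase ring, loaded with the help of Cdc6 and Cdt1, and then copies its DNA with primase, polymerases and the sliding clamp PCNA while ribonucleotide reductase supplies nucleotides. Transcription factors of the E2F family switch on these genes at the entry into S phase, and cyclin B with Cdk1, Aurora and Polo kinases, kinesins and the anaphase promoting complex then drive mitosis. In resting hair follicles most stem cells are out of the cycle, and transcripts of mitosis genes are widely read as a mark of dividing cells.

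Promoter sequences are shown first because short words in them, which were no part of the rule by symbol, occurred at unequal shares in the replication and mitosis genes. RefSeq promoter windows on GRCm38.p6, from 250 bases before to 50 bases after the annotated start, were found for 32 of the 36 genes, as 33 windows. The genes without a window were Mcm4, Ccne2, Ccna2 and Aurkb. An E2F-like match was TTTCCCGC, TTTCGCGC, TTTGCCGC or TTTGGCGC on either strand, and such words can overlap each other. A CHR-like match (cell cycle genes homology region, an element known from promoters of mitosis genes) was TTTGAA or TTCGAA on either strand, and a CCAAT match, the word bound by the factor NF-Y, was counted separately on either strand. Of 17 replication windows 7 (41.2%) held an E2F-like match, against 1 of 16 mitosis windows, which was that of Cdk1, and 2.26% of all 32851 windows. From 100 bases before the start onward these were 3 of 17 replication windows and 1.27% of all windows. Of 16 mitosis windows 13 (81.2%) held a CHR-like match, against 2 of 17 replication windows (Mcm2 and Mcm7) and 19.2% of all windows. Among the 11944 windows of genes with a mean of at least 1 TPM (the deposited transcript level, scaled to gene length and library), these shares were 3.86% for E2F-like and 13.4% for CHR-like matches. A CCAAT match was held by 15 of 16 mitosis windows, by 13 of 17 replication windows and by 37.4% of all windows. The mitosis windows without a CHR-like match were those of Birc5, Ccnb1 and Cenpe. A match is a run of letters in these windows and not a measured binding site.

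In each group, the windows of the most abundant genes that held the word of that group are printed 5′ to 3′ along the gene, with the matching letters in capitals. Cdk2 (chr10:128705002-128705301, minus strand) encodes a kinase of the entry into S phase, and its E2F-like match began 140 bases before the start. Mcm6 (chr1:128359656-128359955, minus strand) encodes a subunit of the helicase ring and had overlapping E2F-like matches from 110 and 106 bases before the start and another from 47 bases before it.
Cdk2: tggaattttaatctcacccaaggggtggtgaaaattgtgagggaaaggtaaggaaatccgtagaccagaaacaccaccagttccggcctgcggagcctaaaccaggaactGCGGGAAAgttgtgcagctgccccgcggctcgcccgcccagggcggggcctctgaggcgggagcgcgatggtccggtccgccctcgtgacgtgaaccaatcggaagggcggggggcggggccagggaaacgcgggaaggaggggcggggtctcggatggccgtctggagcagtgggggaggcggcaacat
Mcm6: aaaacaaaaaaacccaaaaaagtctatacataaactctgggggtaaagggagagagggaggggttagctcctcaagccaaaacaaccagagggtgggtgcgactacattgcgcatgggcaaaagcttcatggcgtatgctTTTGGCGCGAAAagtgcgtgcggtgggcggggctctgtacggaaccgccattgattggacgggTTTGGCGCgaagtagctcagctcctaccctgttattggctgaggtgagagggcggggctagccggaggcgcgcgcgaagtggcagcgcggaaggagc
Cdc20 (chr4:118437294-118437593, minus strand) encodes an activator of the anaphase promoting complex, and its CHR-like match began 18 bases before the start. Ccnb2 (chr9:70421505-70421804, minus strand) encodes cyclin B2 and had CHR-like matches 167 bases before the start and at base 5 after it.
Cdc20: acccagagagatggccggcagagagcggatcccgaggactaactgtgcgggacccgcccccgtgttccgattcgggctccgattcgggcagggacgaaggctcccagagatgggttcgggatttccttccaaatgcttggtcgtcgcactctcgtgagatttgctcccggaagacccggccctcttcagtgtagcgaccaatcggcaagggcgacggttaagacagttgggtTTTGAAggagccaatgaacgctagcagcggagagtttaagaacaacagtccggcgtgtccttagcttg
Ccnb2: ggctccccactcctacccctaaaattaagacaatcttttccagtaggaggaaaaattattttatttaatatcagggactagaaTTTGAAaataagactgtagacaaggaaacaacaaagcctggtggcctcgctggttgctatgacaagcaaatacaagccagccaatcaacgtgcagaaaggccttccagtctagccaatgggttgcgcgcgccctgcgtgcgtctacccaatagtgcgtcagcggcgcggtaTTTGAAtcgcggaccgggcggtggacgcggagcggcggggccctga
The CHR-like words of Cdc20 and Ccnb2 near the start are both TTTGAA, the word that alone was found in 12 of the 16 mitosis windows, in 17.9% of all windows and in 11.7% of those of genes with a mean of at least 1 TPM.

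**Figure D1:**
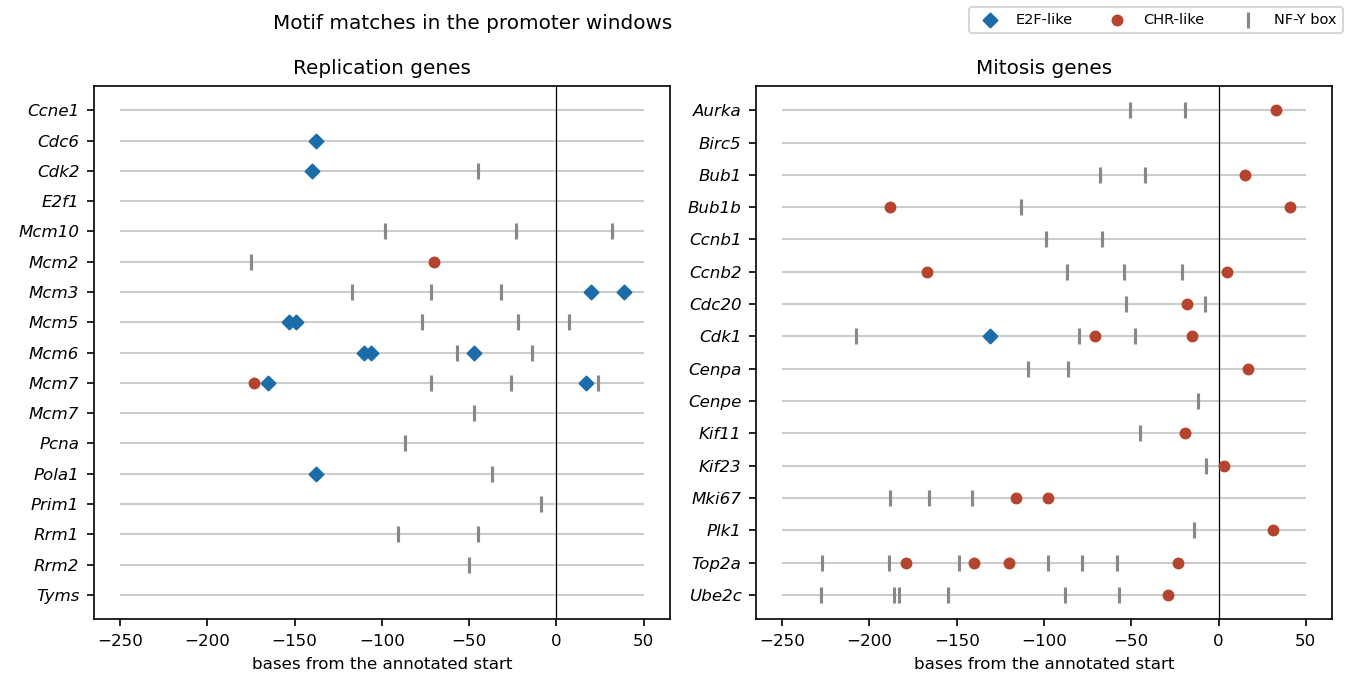
Position of each E2F-like match (blue diamonds), CHR-like match (red circles) and NF-Y box (grey bars) in bases from the annotated start, 1 line per promoter window of a replication gene (left) or mitosis gene (right). Mcm7 has a pair of windows. E2F-like matches occur in 7 of the 17 replication windows and CHR-like matches in 13 of the 16 mitosis windows, each of these 13 with a match from 100 bases before the start onward.

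Total counts were 29283936 in replicate 1, 35264901 in replicate 2 and 39198620 in replicate 3, and the 36 genes together took 735, 560 and 605 CPM (counts scaled to the library total). Every one of the 36 genes had at least 30 counts in every library. The gene of integrin alpha6, Itga6, had 102, 120 and 112 TPM, and that of Sca1, Ly6a, had 3.16, 11.6 and 8.99 TPM, lowest in replicate 1. Markers of the sorted compartment were high, with Krt15, a keratin of bulge stem cells, at 23208 ± 3176 TPM (SD, n = 3). Markers of a growing follicle were mixed, since Shh, made by growing follicle matrix, had 2, 0 and 0 counts and the hair keratin gene Krt35 had 3, 7 and 6, while Hoxc13 and Dlx3, transcription factor genes in the same list of 11 genes, had 38.5 ± 6.38 and 42.0 ± 13.4 TPM. Of 5 endothelial markers, 3 had 0 counts in every library, and the summed level of the 8 immune markers was 10.8, 20.1 and 12.8 TPM. Other markers were present, since the 8 suprabasal epidermis markers summed to 3335, 4502 and 7236 TPM in replicates 1, 2 and 3. Of 8 fibroblast markers 3 reached a mean of 1 TPM, with Col1a1 and Col1a2 at 17.4 ± 8.73 and 16.6 ± 6.60 TPM (SD, n = 3). Replicate 1 stood apart from the others, with 12 genes of the response to tissue dissociation summing to 27325 TPM there against 17664 and 12604 TPM in replicates 2 and 3.

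Transcripts of both groups were present in the sorted telogen cells, the replication genes at moderate and the mitosis genes at low level. A mean of at least 1 TPM was reached by 17 of 18 replication genes and 15 of 18 mitosis genes, where 30.7% of all genes and 54.9% of protein-coding genes reached it. The genes under this limit were Mcm10, Bub1, Kif23 and Cenpe. The median replication gene had 12.7, 14.4 and 15.1 TPM in replicates 1, 2 and 3, and the median mitosis gene had 3.77, 2.05 and 2.08 TPM. On the log2(TPM + 1) scale the median of the replication genes lay above that of the mitosis genes by 1.52, 2.34 and 2.39 in replicates 1, 2 and 3, a mean of 2.08 ± 0.49 (SD, n = 3). The gap was smallest in replicate 1, where the mitosis genes were highest. Among genes with at least 1 TPM in the same library, the median replication gene lay at the percentile of 49.7 and the median mitosis gene at 15.4. These are levels in RNA from many cells, in which fewer dividing cells and less RNA per dividing cell cannot be told apart.

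**Figure D2:**
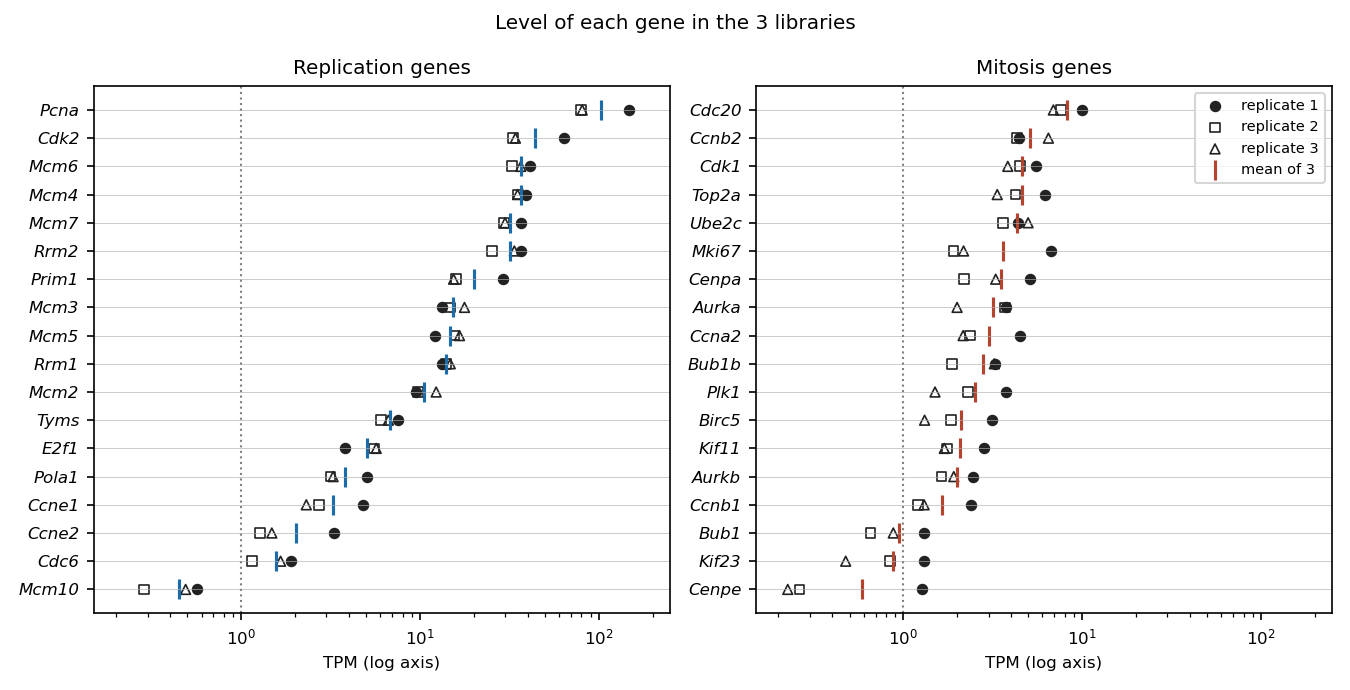
TPM on a log axis of each replication gene (left) and mitosis gene (right) in replicate 1 (filled circles), replicate 2 (squares) and replicate 3 (triangles), with the mean of the 3 as a coloured bar and a dotted line at 1 TPM. Replication genes span means from 0.447 to 103 TPM and mitosis genes from 0.586 to 8.19 TPM.

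The subunits of the replicative helicase ring, encoded by Mcm2 to Mcm7, lay on 2 levels. Mcm4 had 39.2, 35.4 and 35.2 TPM in replicates 1, 2 and 3. Mcm6 had 41.2, 32.6 and 36.6 TPM and Mcm7 had 36.7, 29.7 and 29.9 TPM. These 3 genes encode the subunits known to form a stable core within the ring, and each was highest in replicate 1. Mcm2 had 9.56, 9.80 and 12.3 TPM. Mcm3 had 13.4, 14.7 and 17.7 TPM and Mcm5 had 12.1, 15.6 and 16.6 TPM. All 3 of the latter were lowest in replicate 1 and lay below every value of Mcm4, Mcm6 and Mcm7. The mean log2 level of Mcm4, Mcm6 and Mcm7 exceeded that of Mcm2, Mcm3 and Mcm5 by 1.75, 1.31 and 1.14 in replicates 1, 2 and 3, a mean of 1.40 ± 0.32 (SD, n = 3), or 2.64-fold. The highest subunit exceeded the lowest 4.31-fold, 3.61-fold and 2.97-fold in the same order. TPM depends on the deposited gene length, which was 6956 bases for Mcm2 and between 3589 and 4666 bases for the other 5, and Mcm2 was the lowest of the 6 although its counts exceeded those of Mcm3 and Mcm5 in each library.

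Mcm10 and Cdc6, which act with the ring at origins, were far lower than its subunits. Mcm10, which joins at origin firing, had 0.567, 0.285 and 0.489 TPM from 47, 30 and 58 counts. Cdc6, a loader of the ring, had 1.90, 1.15 and 1.66 TPM from 107, 82 and 134 counts. Both lay below every value of Mcm2 to Mcm7 in each library. Pcna, the sliding clamp, was the highest of all 36 genes and had 147, 79.9 and 80.9 TPM. Its level in replicate 1 stood well above the other libraries, which lay close together. The primase gene Prim1 had 29.0, 15.9 and 15.4 TPM and Pola1, the catalytic subunit of DNA polymerase alpha, had 5.04, 3.16 and 3.27 TPM. Both were highest in replicate 1, with replicates 2 and 3 close together.

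Among the genes of nucleotide supply, Rrm2, the small subunit of ribonucleotide reductase, which is known to be made mainly in S phase, had 36.5, 25.4 and 33.7 TPM. Its partner Rrm1, the large subunit, had 13.3, 14.0 and 14.8 TPM. Rrm2 exceeded Rrm1 in every library, with a log2 ratio of Rrm1 to Rrm2 of -1.17 ± 0.30 (SD, n = 3). The deposited gene length was 11012 bases for Rrm1 and 2771 bases for Rrm2. Rrm1 had more counts than Rrm2 in every library (1578, 2118 and 2510 against 1091, 964 and 1442), so the order of the pair rests on the division by length. Tyms, which makes thymidylate, had 7.56, 6.07 and 6.65 TPM.

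Among kinases and cyclins, Cdk2 stood well above Cdk1 and Ccnb2 above Ccnb1 in every library, while Ccne1 and Ccna2 lay close together. Cdk2, whose kinase is paired with cyclins E and A, had 64.3, 33.1 and 34.2 TPM. Cdk1, the kinase of mitosis, had 5.52, 4.52 and 3.84 TPM from 205, 213 and 204 counts. The log2 ratio of Cdk2 to Cdk1 was 3.54, 2.87 and 3.16 in replicates 1, 2 and 3, a mean of 3.19 ± 0.34 (SD, n = 3), or 9.12-fold. The deposited length of 2432 bases for Cdk2 is shorter than the union of its exons in GENCODE M21, 6219 bases, and for Cdk1 these are 3445 and 4934 bases. With the GENCODE lengths the mean ratio was 2.35 ± 0.34, and Cdk2 would stand at 17.1 ± 6.92 TPM. The lengths were equal for 33 of the 36 genes, the remaining gene being Kif11. The cyclin E genes Ccne1 and Ccne2 were low, with 4.77, 2.72 and 2.31 TPM and with 3.32, 1.27 and 1.48 TPM. Cyclin A2 (Ccna2), which acts in S phase and on the way to mitosis, had 4.52, 2.36 and 2.16 TPM. Its log2 ratio from Ccne1 was small in every library, with a mean of 0.13 ± 0.07 for Ccne1 to Ccna2 (SD, n = 3). Exons of Ccna2 and Ccne2 overlap those of Exosc9 and Ints8 on the opposite strand, over 12.5% and 17.4% of their bases. Exosc9 and Ints8 had mean levels of 8.85 and 9.75 TPM, and the strand setting of the counting is not given, so both cyclin values are uncertain. E2f1, an activator of S phase genes, had 3.82, 5.56 and 5.69 TPM and was lowest in replicate 1. Cyclin B2 (Ccnb2) had 4.42, 4.34 and 6.48 TPM and cyclin B1 (Ccnb1) had 2.40, 1.21 and 1.31 TPM. Ccnb2 was the higher of the pair in every library, with a log2 ratio of Ccnb1 to Ccnb2 of -1.68 ± 0.73 (SD, n = 3). The deposited gene length was 4217 bases for Ccnb1 and 1531 bases for Ccnb2. Counts were 109, 70 and 85 for Ccnb1 against 73, 91 and 153 for Ccnb2, so in replicate 1 the order rests on the division by length.

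The remaining mitosis genes lay between 0.586 and 8.19 TPM on average. Mki67, whose Ki-67 protein coats mitotic chromosomes and is the usual stain for cycling cells, had 6.71, 1.91 and 2.17 TPM from 728, 263 and 337 counts. Replicate 1 set its mean of 3.60 ± 2.70 TPM (SD, n = 3), which was 2.04 TPM without that library. Top2a, the topoisomerase that untangles sister chromosomes, had 6.19, 4.25 and 3.35 TPM. Its relative Top2b, which resting cells also use, had 81.0, 59.4 and 62.5 TPM, and the log2 ratio of Top2b to Top2a was 3.91 ± 0.27 (SD, n = 3), or 15.1-fold. Cdc20 was the highest mitosis gene, with 10.0, 7.62 and 6.91 TPM, and Ube2c, a ubiquitin-conjugating enzyme of the same anaphase machinery, had 4.39, 3.62 and 4.99 TPM. Their SDs were 1.64 and 0.684 TPM (n = 3). Of the bases of Ube2c 22.8% overlap Tnnc2 on the opposite strand, itself at 0.0387 TPM.

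Of the kinase genes, Aurka, the Aurora kinase of spindle poles, had 3.78, 3.72 and 2.00 TPM and Aurkb, that of chromosomes and the midzone, had 2.46, 1.64 and 1.91 TPM. Their log2 ratio of 0.62 ± 0.56 (SD, n = 3) ranged from 0.06 to 1.19 and was close in size to its spread. Plk1, the Polo kinase, had 3.75, 2.29 and 1.50 TPM. The spindle checkpoint genes Bub1 and Bub1b had 1.30, 0.654 and 0.879 TPM and 3.28, 1.88 and 3.23 TPM. Birc5 (survivin), a partner of Aurora B, had 3.14, 1.85 and 1.31 TPM. The kinetochore genes differed widely. Cenpa, the histone H3 variant of centromeres, had 5.13, 2.18 and 3.29 TPM, whereas the kinetochore motor gene Cenpe had 1.27, 0.263 and 0.226 TPM from 118, 31 and 30 counts. The mean of Cenpe fell from 0.586 to 0.244 TPM without replicate 1. The kinesin genes Kif11, for spindle bipolarity, and Kif23, for cytokinesis, had 2.81, 1.76 and 1.70 TPM and 1.30, 0.841 and 0.476 TPM.

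Variation between libraries exceeded counting error for all 36 genes, whose coefficient of variation of TPM was larger than that expected from their mean counts. This variation includes a shift of replicate 1 shared by most genes, given below. The share over all genes was not computed, so the count does not set these 36 apart. The gene-wise biological coefficient of variation from edgeR (the spread between libraries beyond counting error) had a median of 0.26 over the replication genes and 0.40 over the mitosis genes, beside 0.27 over all 13519 genes in the fit. The genes in the fit were not matched for level, and the mitosis genes were the lower of the groups in TPM. Over all 36 genes the median of 0.37 was 0.225 without replicate 1, and over all genes in the fit it was then 0.145. By group it was then 0.137 over the replication genes and 0.282 over the mitosis genes. TPM was highest in replicate 1 for 29 of the 36 genes, beside 59.6% of all 13662 genes with a mean of at least 1 TPM. By group these were 13 of 18 replication genes and 16 of 18 mitosis genes, the exceptions in the latter being Ccnb2 and Ube2c. Part of this excess is common to most genes, since TPM of replicate 1 lay above the mean of the others by a median of 0.24 on the log2(TPM + 1) scale over all 13662 genes. With size factors of DESeq2 the number highest in replicate 1 was 7 of 18 replication genes and 14 of 18 mitosis genes, and with upper-quartile scaling it was 6 and 13, beside 41.6% and 39.0% of all genes.

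The excess of replicate 1 lay above the all-gene median for 16 of 18 mitosis genes and for 10 of 18 replication genes, where 50.0% of all genes lie above it, and the difference between the groups was not tested. On the log2(TPM + 1) scale Mki67 had the largest excess, 1.34, and was the single gene of the 36 that exceeded both other libraries by more than 1, as 10.6% of all 13662 genes did. Without the added 1, Cenpe, with 1.27, 0.263 and 0.226 TPM, had a larger ratio than Mki67. Cenpe and Ccne2 (3.32, 1.27 and 1.48 TPM) then also exceeded both other libraries by more than 1 in log2. With the added 1, Cenpe, Ccna2, Cenpa and Plk1 followed Mki67 in the mitosis group with 0.87, 0.76, 0.73 and 0.73. In the replication group Cdk2, Pcna, Ccne2 and Prim1 were the highest with 0.91, 0.86, 0.86 and 0.85. At the other end lay E2f1, Mcm5, Mcm3, Ccnb2, Mcm2 and Rrm1 with -0.46, -0.38, -0.26, -0.22, -0.18 and -0.11. Apart from Ccnb2, which was lowest in replicate 2, these were the 5 genes that were lowest in replicate 1. In replicate 1, 11 of 12 dissociation response genes were highest, while 7 of 8 basal keratinocyte, 6 of 10 hair follicle stem cell and 5 of 8 suprabasal epidermis markers were lowest there, as were 3460 of all 13662 genes. The part of these in the mitosis transcripts' excess was not tested. Across the 36 genes the excess of replicate 1 had a Spearman correlation of -0.42 with the GC content of the longest transcript, beside -0.36 across 11759 protein-coding genes with a mean of at least 1 TPM. These correlations are descriptions across genes that share the same 3 libraries.

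**Figure D3:**
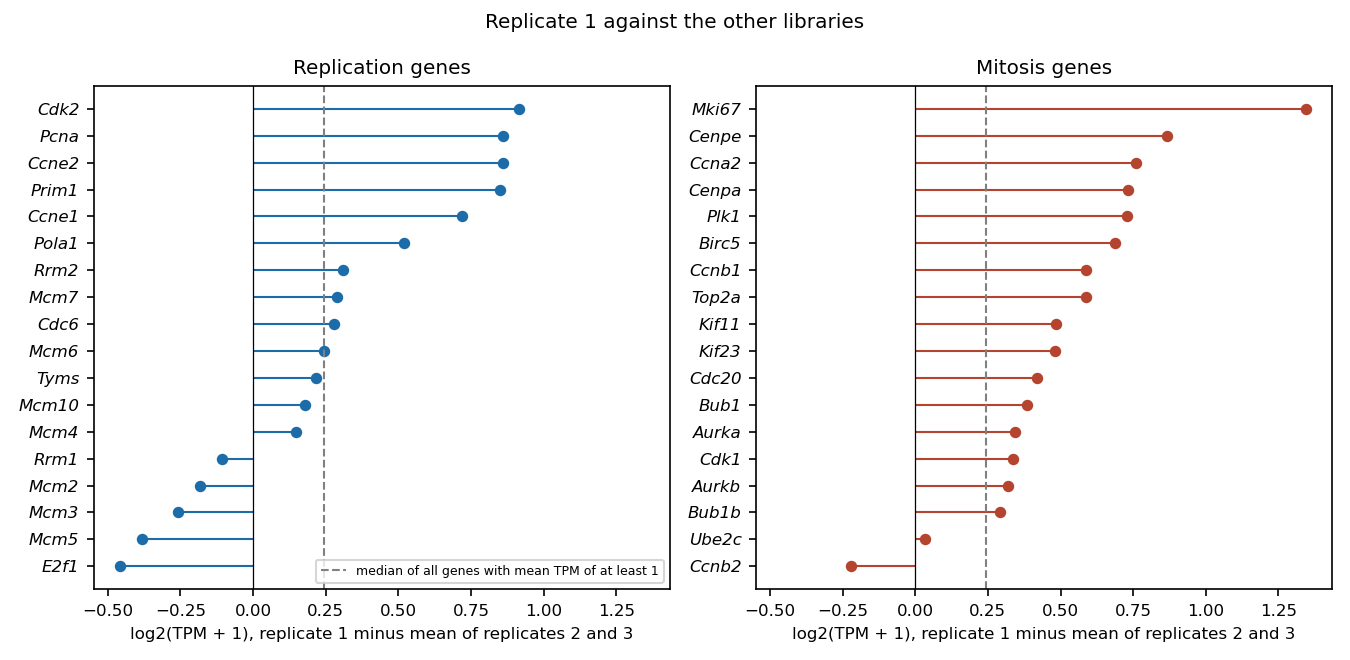
Difference in log2(TPM + 1) between replicate 1 and the mean of replicates 2 and 3 for each replication gene (left) and mitosis gene (right), with a dashed line at the median of 0.24 over all genes with a mean of at least 1 TPM. Of the mitosis genes, 16 of 18 lie to the right of the line, against 10 of 18 replication genes.

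The authors deposited a log2 fold change and adjusted p-value per gene for a comparison that, from column names, was taken to set these cells against bulge libraries, which were not analysed here. Positive fold changes were read as higher in the cells analysed here, since all 2555 genes with 0 counts in these libraries and a fold change had a negative one. Of 18 replication genes, 8 were higher and 3 lower in the authors' deposited table at an adjusted p under 0.05, while of 18 mitosis genes 0 were higher and 9 lower. Over all 20262 genes with an adjusted p in the authors' deposited table, 23.6% were higher and 31.9% lower. The median log2 fold change in the authors' deposited table was 0.36 for the replication genes and -0.82 for the mitosis genes, beside -0.36 over all genes. Over protein-coding genes with a mean of at least 1 TPM in these libraries it was 0.31, close to that of the replication genes. Of those protein-coding genes 37.9% were higher and 25.4% lower in the authors' deposited table. All 8 suprabasal epidermis markers and 9 of 12 dissociation response genes were also higher in the authors' deposited table, with medians of 2.85 and 1.60, and their part in the members' values was not tested. Under a looser limit of 0.1 for the adjusted p, a single mitosis gene, Cdk1, was higher in the authors' deposited table, beside 25.8% of all genes. The table holds adjusted values only, DESeq2 and DESeq are both among the tools listed by the submitters, and the test was not run again here.

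All 6 genes of the helicase ring were higher in the authors' deposited table. Mcm5 led with a log2 fold change of 1.94 (adjusted p = 3.58e-07), followed in the authors' deposited table by Mcm7 with 1.37 (2.04e-07) and Mcm6 with 1.02 (5.21e-06). Next in the authors' deposited table were Mcm3 with 1.00 (adjusted p = 0.00869), Mcm2 with 0.86 (0.0116) and Mcm4 with 0.50 (0.0479), the last close to the threshold. Both levels of the ring were thus on the same side. The other genes called higher in the authors' deposited table were E2f1 with 1.79 (adjusted p = 0.00934) and Cdk2 with 1.40 (1.69e-06). The genes called lower in the authors' deposited table were the cyclin gene Ccne2 with -2.34 (adjusted p = 3.08e-08), the polymerase gene Pola1 with -1.52 (2.68e-08) and Tyms with -0.66 (0.0325). Pcna, Prim1, Rrm1, Rrm2, Ccne1, Cdc6 and Mcm10 had log2 fold changes between -0.58 and 0.65 and adjusted p-values from 0.297 to 0.963 in the authors' deposited table. Of these 7 genes Pcna and Rrm2 are among the more abundant replication genes, with 103 ± 38.4 and 31.9 ± 5.79 TPM (SD, n = 3).

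The 9 mitosis genes called lower included the standard proliferation markers. Mki67 had a log2 fold change of -2.53 (adjusted p = 7.49e-10) and Top2a one of -2.13 (3.52e-10) in the authors' deposited table. The largest decrease in the authors' deposited table was that of Cenpe, with -2.65 (adjusted p = 1.1e-05). The authors' deposited table gave the kinesin genes Kif11 and Kif23 -1.99 (adjusted p = 7.74e-07) and -1.75 (0.000567), and the cyclin genes Ccna2 and Ccnb1 -1.80 (9.77e-06) and -1.49 (0.00298). Bub1 and Cenpa completed the 9 in the authors' deposited table with -1.24 (adjusted p = 0.0364) and -1.02 (0.0102). The other 9 genes, among them Cdk1, Plk1, Aurka and Aurkb, did not pass. Their values in the authors' deposited table were 0.92 for Cdk1 (adjusted p = 0.06), and then for Birc5 1.10 (0.193), Aurka 0.46 (0.514), Cdc20 0.35 (0.483), Plk1 0.20 (0.817), Ccnb2 0.16 (0.831), Aurkb -0.05 (0.945), Ube2c -0.30 (0.618) and Bub1b -0.62 (0.319). Cyclins B1 and B2 thus fell on different sides of the threshold, and the difference between them was not tested.

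**Figure D4:**
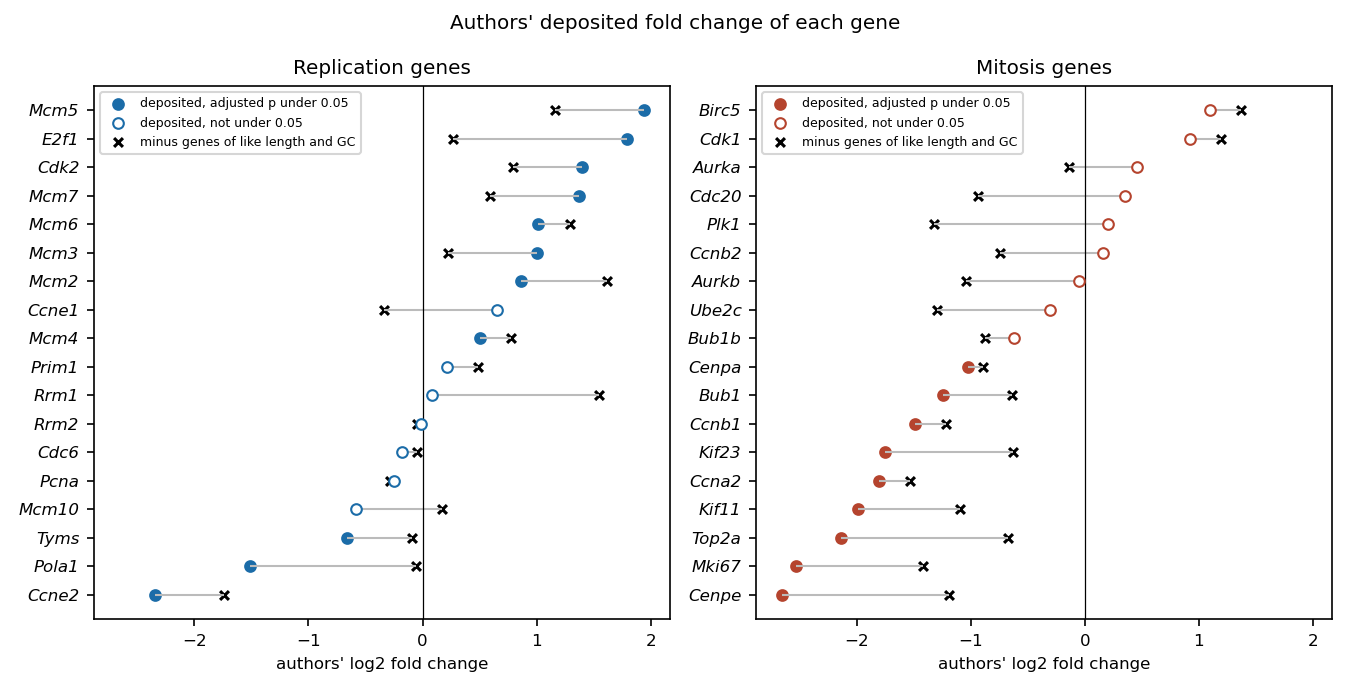
Log2 fold change from the authors' deposited table for each replication gene (left) and mitosis gene (right), filled where the adjusted p was under 0.05, with a cross at the same value minus the median of protein-coding genes in the same quintile of gene length and of GC content. The 6 Mcm2 to Mcm7 points and crosses lie right of 0, and 16 of the 18 mitosis crosses lie left of 0.

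The fold change in the authors' deposited table moved with gene length and GC content. Across 14645 protein-coding genes its Spearman correlation was -0.39 with the deposited gene length and 0.48 with the GC content of the longest transcript. Of protein-coding genes in the quintile with the shortest models, 48.2% were higher and 10.4% lower in the authors' deposited table, and in the quintile with the longest models 8.81% were higher and 55.8% lower. The members followed this order. Across the 18 mitosis genes the correlation of the fold change was -0.81 with length and 0.69 with GC content, and across the 18 replication genes it was -0.26 and 0.73. Of the 10 mitosis genes of at least 4038 bases, the median over all 36 genes, 9 were called lower in the authors' deposited table, and of the 8 shorter ones 0 were. The gene at or above this length that was not called was Bub1b, and Cdk1 would join it by its GENCODE length. The genes called lower with the largest decreases, Cenpe, Mki67 and Top2a, have models of 8620, 10061 and 9013 bases, while the uncalled Cdc20, Ccnb2 and Plk1 have 1868, 1531 and 2199 bases. These correlations are across genes from the same libraries and are given as descriptions. Ccnb1 and Ccnb2 differ in the same way, with 4217 and 1531 bases.

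**Figure D5:**
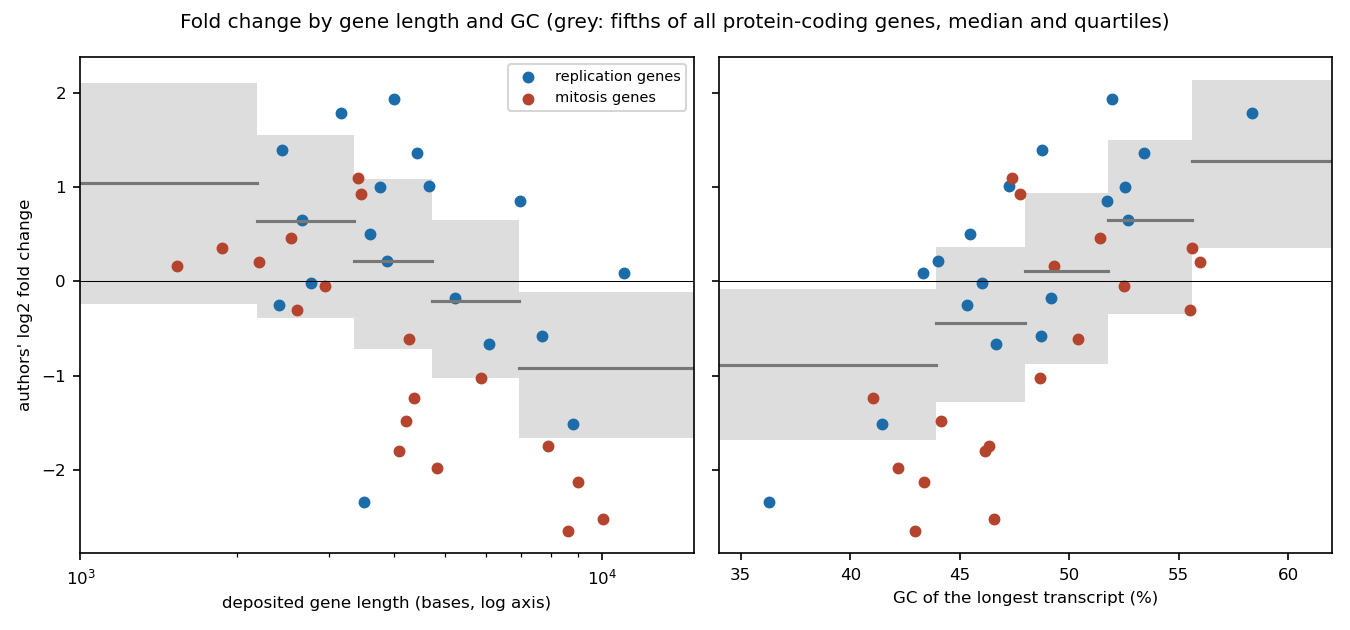
Log2 fold change from the authors' deposited table (vertical axis) of the replication genes (blue) and mitosis genes (red) against gene length on a log axis (left) and GC content of the longest transcript in percent (right), over the median (grey line) and quartiles (grey area) of each quintile of protein-coding genes. The fold change falls with length and grows with GC content in the grey background, and most mitosis genes lie below the grey lines.

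Each gene was then set against protein-coding genes of the same quintile of length and of GC content, by subtraction of their median fold change. This was a comparison chosen after seeing the data, and it has no test. Relative to these genes 16 of 18 mitosis genes had a negative value, with a median of -0.91, where 12 of 18 were negative as deposited. The subtraction leaves as many of the comparison genes below 0 as above it. They were not matched on level, and across the 36 genes mean TPM and fold change had a Spearman correlation of 0.58. The part of level in these values was not tested. In the authors' deposited table the short gene Plk1 had 0.20 and became -1.32 relative to genes of its quintiles, Cdc20 went from 0.35 to -0.94 and Ccnb2 from 0.16 to -0.74, while the long genes Mki67 and Cenpe went from -2.53 to -1.41 and from -2.65 to -1.19. The exceptions were Cdk1 and Birc5, which had 1.20 and 1.37 relative to genes of their quintiles. The 6 ring genes all stayed positive, between 0.22 for Mcm3 and 1.61 for Mcm2, with a median of 0.97. Over all 18 replication genes the median was 0.24, again with 11 positive and 7 negative values, although Ccne1 and Mcm10 changed sign. Rrm1, with a model of 11012 bases, went from 0.09 to 1.55, and Pola1, called lower in the authors' deposited table, went from -1.52 to -0.06.

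Other genes of the same pathways were taken from 5 lists set by function, whose levels did not divide into replication and mitosis. Their called counts stand beside 23.6% higher and 31.9% lower over all 20262 genes in the authors' deposited table. The 20 genes of the replication fork had a median of 16.8 ± 4.54 TPM (SD over libraries, n = 3), and 9 were higher and 2 lower in the authors' deposited table. Dut, which keeps uracil out of DNA, and Pold2, a subunit of polymerase delta, were the highest, with 66.9 ± 7.59 and 55.6 ± 9.91 TPM. Pole, the catalytic subunit of polymerase epsilon, and the flap nuclease gene Fen1 were the lowest, with 1.52 ± 0.481 and 0.638 ± 0.667 TPM, and Fen1 had only 11, 46 and 4 counts. In the authors' deposited table the extremes among the called fork genes were Pold1 with 2.42 (adjusted p = 1.44e-15) and the thymidine kinase gene Tk1 with -1.03 (0.000528). The 16 genes of origin licensing and firing had a median of 6.94 ± 0.87 TPM, with 1 gene higher (Gins4, 0.65, adjusted p = 0.012) and 4 lower in the authors' deposited table. Gins4 and Orc6 were the highest with 60.4 ± 3.04 and 22.5 ± 7.31 TPM. Ticrr and Orc1 were the lowest with 0.613 ± 0.230 and 0.600 ± 0.474 TPM. The most negative called gene of this list in the authors' deposited table was Orc3 with -2.01 (adjusted p = 3.02e-23). The median log2 fold change in the authors' deposited table was 0.64 for the fork genes and 0.08 for the origin genes. Relative to genes of like length and GC content these medians were 0.35 and 0.04.

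The 20 genes of spindle, kinetochore and cytokinesis resembled the mitosis group, with a median of 1.82 ± 0.49 TPM (SD over libraries, n = 3). Of the 20, 0 were higher and 8 (40.0%) lower in the authors' deposited table, beside 23.6% and 31.9% of all genes. Their median log2 fold change in the authors' deposited table was -0.77. Relative to genes of like length and GC content 12 of the 20 had a negative value, with a median of -0.37, where as many comparison genes lie below 0 as above it. Incenp and Cdca8, both of the Aurora B complex, were the highest with 9.14 ± 2.89 and 2.93 ± 0.640 TPM, and the kinetochore genes Cenpf and Knl1 were the lowest with 0.452 ± 0.415 and 0.298 ± 0.190 TPM. Knl1 also had the most negative value of the list in the authors' deposited table, -3.67 (adjusted p = 6.55e-14). The 19 genes of the anaphase promoting complex and mitotic exit were higher, with a median of 18.2 ± 4.70 TPM, and 10 were higher and 4 lower in the authors' deposited table. Anapc5 and Anapc2, subunits of the complex, had 125 ± 66.0 and 108 ± 4.86 TPM, whereas Chek1, a checkpoint kinase gene, and Cdc25c, a phosphatase gene of mitotic entry, had 1.57 ± 0.271 and 1.34 ± 0.346 TPM. In the authors' deposited table the extremes of this list were Anapc11 with 2.41 (adjusted p = 2.22e-16) and Cdc27 with -1.90 (9.04e-18). Its median in the authors' deposited table was 0.82, and 0.45 relative to genes of like length and GC content. Genes of the complex itself are known to be used outside mitosis too.

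The 19 regulators of E2F, Rb and the DREAM complex, which holds cell cycle genes silent in resting cells, had a median of 9.12 ± 1.29 TPM (SD over libraries, n = 3). Rbbp4, a histone-binding subunit, and Tfdp1, the partner of E2F proteins, were the highest with 49.2 ± 3.17 and 43.4 ± 2.54 TPM. E2f7 and E2f8, repressors that are themselves made in S phase, were the lowest with 0.143 ± 0.0750 and 0.768 ± 0.192 TPM. Of this list 1 gene was higher (Rbbp4, 1.38, adjusted p = 2.56e-09) and 5 were lower in the authors' deposited table, the most negative being the retinoblastoma gene Rb1 with -1.84 (adjusted p = 3.41e-16). The H3K27me3 value of the authors' deposited table, taken to reflect a repressive histone mark with its unit not stated, was 0 for all 36 replication and mitosis genes. It was above 0 for 8.06% of all genes and 3.29% of genes with a mean of at least 1 TPM in the authors' deposited table. Of the regulators, E2f7 alone carried such a mark value in the authors' deposited table, at 12790.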

How the data were processed

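Polyadenylated RNA of 3 libraries, 1 group, was analysed. Per the file headers, the deposited table holds raw counts per gene, TPM values (from count and gene length), the gene length itself, a log2 fold change, its adjusted p-value, a score and an H3K27me3 value per gene. Per the submitters' processing notes, FastQC, SAMtools, TopHat2, DESeq2 and DESeq were used with mm10/GRCm38. The counter, strand setting and the role of each tool are not given in the sources used here. The score was made by the authors and was not used for any result. Another 6 columns of per-sample values, named as bulge libraries, match no sample here and were not used.

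For symbols with several entries the one with the highest mean TPM was kept, and all 36 genes were found by symbol. Gene types and GC content came from GENCODE M21 by gene identifier. The biological coefficient of variation was estimated with edgeR 4.0.16 (TMM, filterByExpr, 1 group), a step tested on simulated data. DESeq2 1.42.0 gave size factors only. Differences between libraries use log2(TPM + 1), so that those of low genes are understated. No test of expression was run. Depth was 29283936 to 39198620 counts, and 3 counts, the limit that a count of 0 allows, equal 0.102, 0.0851 and 0.0765 CPM in replicates 1, 2 and 3, covering counting error only.

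The genes, gene lists and promoter rule were chosen with earlier results of these data known. All members are described, and of each further list the 2 highest, the 2 lowest and the extreme called genes are named. Promoters are from RefSeq (GRCm38.p6), printed for the 2 most abundant members of each group whose window holds the word of that group. The last 30 bases of 28 of the 33 windows lie in a GENCODE transcript of the same gene.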

Additional observations from a re-analysis of the deposited data

How the results depend on the processing

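Of 94 alternative values over 22 results, 78 moved by less than the spread between libraries or, for counts, by at most 1.5 times, 16 moved further and 0 changed sign. Leaving out 1 of 3 libraries cannot move a mean of 3 values by its SD, so for levels and ratios that outcome was fixed. Counts could not change sign. Among the 55 alternatives other than leaving out a library, 41 stayed within these limits and 14 moved further. A limit of 5 TPM left 15 of 36 genes detected. The mean in place of the median gave a replication level of 3.64 instead of 3.91, and a pseudocount of 0.1 gave a mitosis level of 1.39 instead of 1.83, both as log2 values. With upper-quartile scaling 19 of 36 genes were highest in replicate 1 instead of 29, and 21 with TMM or DESeq2 size factors, beside 39.0%, 42.7% and 41.6% of all genes. An excess over both other libraries of more than 1 on the log2(TPM + 1) scale was held by 1 gene, beside 10.6% of all genes. A pseudocount of 1 gave a log2 ratio of Top2b to Top2a of 3.63 instead of 3.91, and exon lengths of GENCODE M21, chosen after seeing the data, gave one of Cdk2 to Cdk1 of 2.35 instead of 3.19. With an absolute log2 fold change of at least 1 required, 5 replication genes were higher in the authors' deposited table, beside 19.0% of all genes, and at an adjusted p under 0.1 there was 1 higher mitosis gene instead of 0, beside 25.8%. Minus the median of all genes, the median fold changes of the authors' deposited table were 0.71 for replication and -0.46 for mitosis genes, and minus genes of like length and GC content 0.24 and -0.91, both chosen after seeing the data. The first depends on the background. Genes with a mean of at least 1 TPM had a positive median in the authors' deposited table, 0.25, and protein-coding ones among them 0.31, which were not subtracted. Leaving out 1 library moved the median biological coefficient of variation from 0.37 to between 0.225 (without replicate 1) and 0.466 (without replicate 2). Within 100 bases before the start or after it, 3 replication windows held an E2F-like match, beside 1.27% of all windows. The cause of these shifts was not tested. Counts of 30 to 58 for Mcm10 and 30 to 118 for Cenpe limit the precision of the lowest genes. No paired analysis was possible because the samples form 1 group.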
